A study of Mus musculus with 2 samples.

Results

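The cytosolic ribosomal protein genes encode the proteins of the 40S and 60S subunits of the ribosome. They were chosen by symbol: protein-coding genes named Rpl or Rps and a number, with or without the letters a, x or l, together with Rplp0, Rplp1, Rplp2 and Rpsa. The Rps6k kinases and the pseudogenes were left out. The rule found 84 genes of the 10083 protein-coding genes that had a listed m6A position, and these 84 genes held 1013 of the 160430 listed positions. Among the 84 were 52 genes of the large subunit and 32 of the small subunit. A set of 7 (Rpl3l, Rpl7l1, Rpl10l, Rpl22l1, Rpl36al, Rpl39l and Rps27l) are paralogues, which are copies related to another member, and the other 77 are called core genes here.

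Poly(A) RNA of mouse 129 embryonic stem cells was sequenced as native RNA by nanopore direct RNA sequencing. The wild-type (WT) cells were compared with Mettl3 knockout (KO) cells. The KO cells, edited with CRISPR–Cas9, lack exons 5 to 7 of Mettl3 and carry drug selection markers there (puromycin and hygromycin). There was 1 library per group, and whether the KO cells descend from a single clone is not given in the sources used here. The data are 17 lists of positions called by 10 tools. Each library has a list of its own from 7 tools (Nanom6A, Tombo, Epinano, m6Anet, xPore, MINES and ELIGOS). The other 3 tools, DRUMMER, Nanocompore and DiffErr, set the WT reads against the KO reads, and each has 1 list, called a comparison list here. The lists hold no score, methylation rate or read number, so the depth at a position is unknown, and a position missing from a list cannot be told apart from a position with too few reads. A position was counted once per chromosome, base and strand, on the GRCm38 build. With 1 library per group no difference between WT and KO, or between groups of genes, was tested, and the 95% intervals (Wilson for shares, exact binomial for ratios) cover counting error only.

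Ribosomal proteins bind ribosomal RNA in the nucleolus and cytoplasm and form the body of the ribosome around its RNA. Their mRNAs are short, abundant in growing cells and begin with a terminal oligopyrimidine tract, through which the mTOR pathway controls their translation. METTL3 is the catalytic subunit of the complex that methylates adenosines in RRACH sequences of mRNA (R is A or G, H is A, C or T), and m6A in mammals is known for lying near stop codons and in long internal exons and for being sparse close to exon junctions.

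Mettl3 itself was looked at first, as a check of the labels. In exons 5 to 7, the replaced part, WT lists held 2 positions and KO lists 0. Exons 1 to 4 held 7 in WT and 0 in KO, and exons 8 to 11 held 4 in WT and 5 in KO, so the absence from the KO lists was not particular to the replaced exons. Of 11 marker genes of embryonic stem cells, 10 had a listed position in WT and 9 in KO, with 236 and 185 positions. Esrrb, a nuclear receptor of pluripotent cells, had the most, with 50 in WT and 38 in KO. Nanog, a pluripotency factor, had 37 positions in WT and 35 in KO, and Pou5f1 had 25 in each. Lin28a had 0 positions in both libraries. Of 12 markers of endoderm, mesoderm, neural cells and feeder fibroblasts, 2 were listed in WT (Sox17 with 12 positions and Thy1 with 3) and 2 in KO (Col1a1 with 3 and Thy1 with 1), and the other 9 had 0 in both. What these few positions contribute to the results for the ribosomal protein genes was not tested.

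All 84 genes had listed positions in both libraries. Of their 1013 positions, 957 were in a WT list and 959 in a WT or comparison list. KO lists held 920. In KO, 866 of the 959 positions (90.3%, 88.3% to 92.0%) were listed again by at least 1 tool, which is 94.1% of the positions listed in KO. The remaining 93 positions (9.70%, 7.98% to 11.7%) were in no KO list, against 41% of the positions of all genes and 27.9% in other genes with short transcripts (under 1000 nt). In the other direction, 54 of the 920 KO positions (5.87%) were in no WT or comparison list, against 29.3% in the other protein-coding genes and 13.5% in the short transcripts. The listed positions of the ribosomal protein genes were thus mostly the same bases in the presence and in the absence of Mettl3.

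The tools differed in how far their lists changed. Nanom6A listed 787 positions of these genes in WT and 760 in KO, a KO to WT ratio of 0.966 (0.873 to 1.07), and Tombo listed 420 and 410, a ratio of 0.976 (0.850 to 1.12). For MINES the counts were 58 and 49, a ratio of 0.845 (0.566 to 1.26). The intervals of these 3 tools include a ratio of 1. They take the 2 lists as independent counts, although most positions are in both. With the positions of both lists held fixed, an interval added after seeing the data, that of Nanom6A (0.948 to 0.987) lay below 1, with 48 positions in its WT list alone and 21 in its KO list alone, while those of Tombo and MINES still included 1. With each listed line counted in place of positions, the MINES ratio was 0.705 (0.522 to 0.949), also below 1. Lower ratios were found for m6Anet, with 133 positions in WT and 88 in KO (0.662, 0.500 to 0.873), for ELIGOS, with 39 and 21 (0.538, 0.301 to 0.938), and for Epinano, with 222 and 93 (0.419, 0.325 to 0.536). For m6Anet and Epinano the interval stayed below 1 under each alternative tried. For ELIGOS it included 1 in the core genes (0.625, 0.339 to 1.13) and without exons shared by genes (0.583, 0.324 to 1.03). In the other protein-coding genes the ratios of m6Anet, ELIGOS and Epinano were 0.580, 0.252 and 0.338. xPore, which fits its mixture model over both libraries together, listed 67 positions in WT and 63 in KO. Its ratio of 0.940 (0.656 to 1.35) stood beside 0.437 (0.416 to 0.459) in the other genes and 0.739 (0.593 to 0.919) in other short transcripts, where the intervals overlapped. ELIGOS had 0.252 (0.188 to 0.334) in the short transcripts.

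For each of these 7 tools, the share of WT positions that the same tool listed again in KO was higher in the ribosomal protein genes than in the other genes. It was 93.9% against 64.2% for Nanom6A, 80.7% against 59.8% for Tombo and 65.5% against 40.3% for MINES. For m6Anet it was 54.9% (46.4% to 63.1%) against 34.4%, for ELIGOS 43.6% (29.3% to 59.0%) against 11.2% and for Epinano 29.7% (24.1% to 36.0%) against 16.5%. For xPore it was 82.1% (71.3% to 89.4%) against 24.1%. As a share of the KO lists, the positions in both libraries made up 97.2% for Nanom6A, 87.3% for xPore, 83.0% for m6Anet, 82.7% for Tombo, 81.0% for ELIGOS, 77.6% for MINES and 71.0% for Epinano. In other genes with short transcripts, the share of WT positions listed again was 72.5% for Nanom6A, 68.9% for Tombo and 45.7% for xPore. It was 51.9% for MINES, 37.2% for m6Anet, 15.9% for ELIGOS and 23.9% for Epinano. All lay between the ribosomal protein genes and all other genes, with intervals overlapping the former for MINES and Epinano. In the translation genes described below, the share was higher than in the ribosomal protein genes for Nanom6A (95.8%) and Tombo (85.9%). It was lower for MINES (54.2%), m6Anet (49.4%), ELIGOS (14.3%), Epinano (27.6%) and xPore (63.0%).

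**Figure D1:**
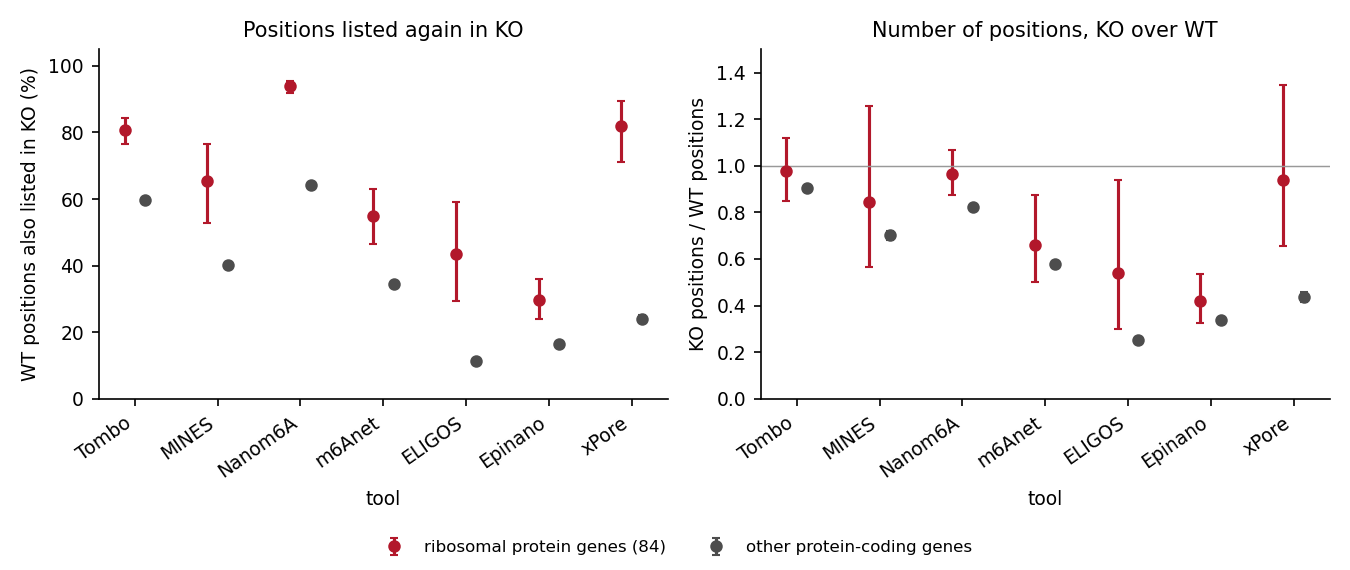
Positions in the 84 ribosomal protein genes (red) and in the other protein-coding genes (grey) by tool, with points for the values and bars for 95% intervals (Wilson on the left, exact binomial on the right), which cover counting error only. On the left is the percentage of WT positions that the same tool listed in KO, from 29.7% for Epinano to 93.9% for Nanom6A in the ribosomal protein genes, and on the right the number of KO positions over the number of WT positions, with a line at 1.

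Since these transcripts are short, listed positions were also counted per RRACH position of 1 coding transcript per gene. The transcripts of the 84 genes had a median length of 869 nt and a median of 5 exons, against 2836 nt and 9 exons in the other genes with a listed position. Of their 1175 RRACH positions, 71.7% (69.1% to 74.2%) were listed in WT, 70.5% (67.8% to 73.0%) in KO and 68.3% in both. The other genes had 25.3% listed in WT and 21.1% in KO, and other genes with short transcripts had 54.2% and 45.2%. Nanom6A alone listed 64.8% of the RRACH positions of the ribosomal protein genes in WT, against 6.40% in the other genes and 29.0% in the short transcripts. Read depth, which the lists do not give, was not compared between these groups.

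Taken over all tools, the listed positions filled the coding sequences of these genes almost completely, mostly through the lists of Nanom6A. In WT, Nanom6A had 576 positions in coding sequence, Tombo 244, Epinano 116, m6Anet 70, xPore 50, MINES 38 and ELIGOS 14. The shares without Nanom6A were not computed. Of 615 RRACH positions in coding sequence, 597 (97.1%, 95.4% to 98.1%) were listed in WT and 589 (95.8%, 93.9% to 97.1%) in KO, against 26.3% and 22.8% in the other genes. In the 3′ UTR the shares were 49.1% in WT and 48.7% in KO (62.3% and 60.7% without Rps20 and Rps15a, whose 3′ UTRs are long), and in the 5′ UTR 29.8% and 26.5%. Coding sequence was therefore the region with the highest share in both libraries, whereas in the short transcripts of other genes it was the 3′ UTR in WT, with 61.1%, ahead of 55.3% in coding sequence.

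Both subunits followed this pattern. In the 52 genes of the large subunit, 371 of 389 RRACH positions in coding sequence (95.4%) were listed in WT and 363 (93.3%) in KO. In the 32 genes of the small subunit, all 226 such positions were listed in both libraries. The small subunit had the lower share in the 3′ UTR, with 23.7% in WT against 67.8% for the large subunit, and the 95% intervals did not overlap. That low value includes the transcripts chosen for Rps20 and Rps15a, whose annotated 3′ UTRs of 3167 and 4728 nt held few listed positions: 8 of 49 RRACH positions of the whole Rps20 transcript were listed in WT, and 7 of 54 of that of Rps15a. These 2 genes were singled out for the length of their 3′ UTRs, after their values were seen. Without them, 46.3% (36.0% to 57.1%) of the other 82 RRACH positions in small subunit 3′ UTRs were listed in WT, still below the large subunit. Over all regions, 76.0% of the RRACH positions of the large subunit and 64.8% of those of the small subunit were listed in WT, with 74.5% and 63.9% in KO. Without Rps20 and Rps15a the small subunit had the higher values, with 272 of 340 RRACH positions (75.4% to 83.9%) listed in WT and 77.9% in KO. In WT this interval overlapped that of the large subunit (72.7% to 78.9%), from which no gene was left out. The median per gene was also higher in the small subunit, at 87.3% against 85.7% in WT.

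Comparison lists ask which positions differ between WT and KO, and here the ribosomal protein genes were above the background. Nanocompore, DiffErr or DRUMMER listed 179 of their 959 positions (18.7%, 16.3% to 21.3%), against 2.45% of the positions of all genes and 4.88% (4.26% to 5.58%) in other short transcripts. At least 1 such position was found in 67 of the 84 genes (79.8%), against 15.5% of all protein-coding genes with a listed position and 17.6% (14.9% to 20.7%) of those with other short transcripts. Nanocompore listed 113 positions in 55 of the 84 genes (65.5%), DiffErr 97 in 52 (61.9%) and DRUMMER 53 in 39 (46.4%), against 11.1%, 10.6% and 8.58% of all genes. All 3 lists shared 19 positions in 18 genes (21.4%), against 3.81%. The large subunit held 107 of the 179 positions and the small subunit 72, which is 17.3% and 21.2% of their positions in a WT or comparison list, with overlapping intervals.

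Nearly every one of these positions was also in a KO list. Of the 179 positions, 177 (98.9%, 96.0% to 99.7%) were listed in KO by at least 1 of the 7 tools, against 75.1% (73.5% to 76.6%) of the comparison positions of other genes. The share was also high among all 959 positions of the ribosomal protein genes, 90.3% (88.3% to 92.0%), against 58.8% in the other genes. Of their RRACH positions in coding sequence, where most comparison positions lay, the ribosomal protein genes had 95.8% (93.9% to 97.1%) listed in KO. Without the KO lists of Tombo and Nanom6A, the 2 longest in these genes, the share of comparison positions in KO was 32.4% (26.0% to 39.6%) in the ribosomal protein genes and 37.8% (36.1% to 39.5%) in the others. The higher share in the ribosomal protein genes was thus not seen in the KO lists of the other 5 tools. The 2 positions in no KO list, named after their values were seen, lie in Rpl30 and Rpl17, both genes of the large subunit. A position of Rpl27a and the same position of Rpl17 were in a comparison list and in no WT list.

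The comparison positions of these genes lay in a different part of the transcript from those of other genes. Of the 178 that could be placed on the chosen transcript, 146 (82.0%, 75.7% to 87.0%) were within 100 nt of an exon junction. Among those whose surrounding 21 nt were found in no other gene, a choice made after seeing the data, the share was 47.4% (32.5% to 62.7%) of 38. It was 11% (9.95% to 12.2%) for the comparison positions of the other genes and 9.60% (6.23% to 14.5%) in other short transcripts. Coding sequence held 82.6% of the 178, against 35.2% in the other genes. At windows found in no other gene it held 15 of the 38, so this difference was mostly seen at shared windows. The RRACH positions themselves were within 100 nt of a junction in 56.9% of cases in the ribosomal protein genes, 43.6% in the other genes and 57.7% in short transcripts. By this measure the RRACH positions of the ribosomal protein genes and of other short transcripts were alike. For positions in a WT or comparison list the share was 74.6% (71.6% to 77.5%), and for KO positions it was 74.3% (71.3% to 77.2%).

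Along the distance to the junction, the order of the comparison shares was reversed between the groups. At RRACH positions within 50 nt of a junction, the ribosomal protein genes had 95% listed in WT, 93.2% in KO and 21.6% (18.2% to 25.4%) in a comparison list. Beyond 200 nt, where positions of genes with 1 exon are also counted, these shares were 34.0%, 33.8% and 3.32% (1.95% to 5.60%). In the other genes, comparison lists held 0.0861% of the RRACH positions within 50 nt, 1.78% of those between 100 and 200 nt and 0.841% of those beyond. In other short transcripts the values were 0.328%, 5.88% and 5.65%. Comparison positions were thus more frequent near junctions in the ribosomal protein genes and less frequent there in the other 2 groups. A comparison share near junctions above that of the other 2 groups was not particular to the ribosomal protein genes. In the translation genes described below, the share was 9.46% (6.63% to 13.3%) within 50 nt. Their order was not the same, with the highest share, 25.5% (15.5% to 38.9%), between 100 and 200 nt. There the ribosomal protein genes had 16.4% (10.7% to 24.2%), below their 22.8% (17.1% to 29.7%) between 50 and 100 nt, with overlapping intervals. Beyond 200 nt the translation genes had 5.68% (3.47% to 9.16%), and this interval overlapped theirs within 50 nt. At windows found in no other gene the order in the ribosomal protein genes was the same with lower values, 14.1% (8.61% to 22.3%) within 50 nt and 2.71% (1.43% to 5.07%) beyond 200 nt.

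**Figure D2:**
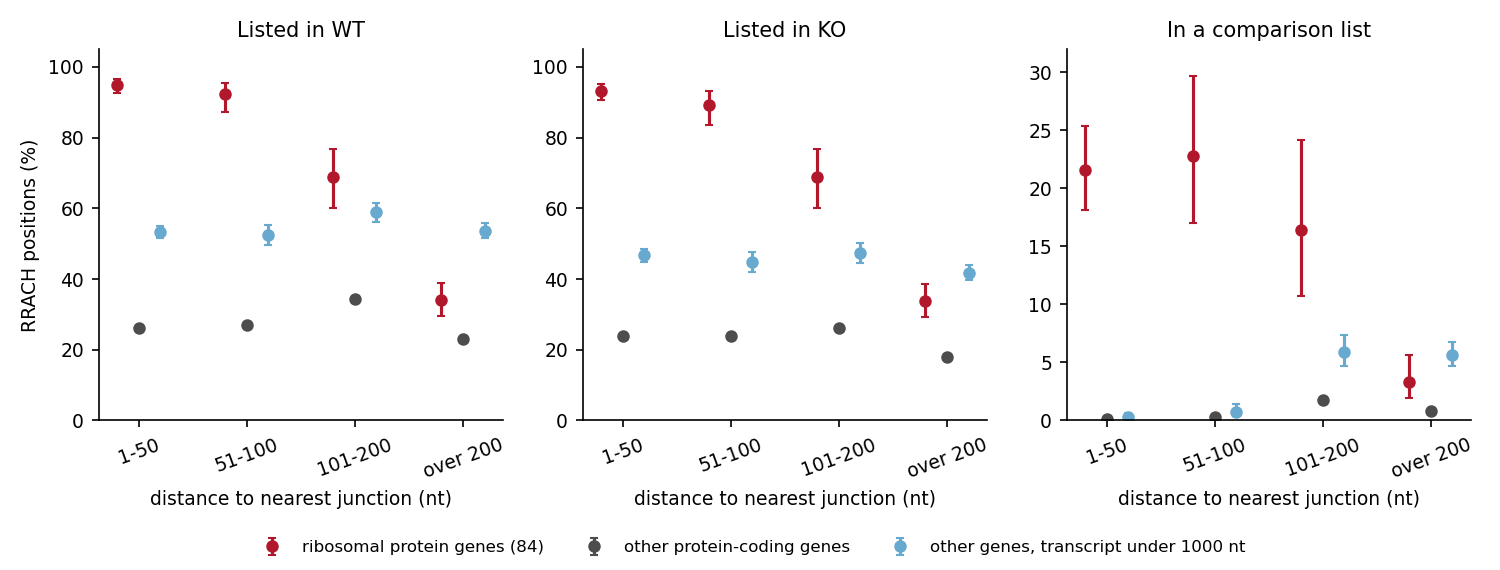
Percentage of RRACH positions listed in WT (left), in KO (middle) and in a comparison list (right) by distance to the nearest exon junction in nt, for ribosomal protein genes (red), other protein-coding genes (grey) and other genes with transcripts under 1000 nt (blue), with 95% Wilson intervals as bars. In the ribosomal protein genes the values fell from 95% to 34.0% in WT and from 21.6% to 3.32% in the comparison lists between the nearest and the farthest class.

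Around the stop codon the comparison positions of these genes and of all other genes had like shares, although the shares of their RRACH positions were unlike. Comparison positions of other short transcripts had a higher share there. A window of 200 nt on either side of the stop codon's first base held 44.5% (41.1% to 47.8%) of the positions in a WT or comparison list and 44.7% of the KO positions, against 35.3% of the RRACH positions of the same transcripts. In the other genes these values were 22.4%, 20.9% and 12.7%, and in other short transcripts 56.0%, 54.4% and 50.1%. Of the 178 placed comparison positions, 89 (42.7% to 57.3%) lay in this window, against 51.3% in the other genes and 77.8% in other short transcripts. The 42 placed positions that no KO list held lay there in 35.7% (23.0% to 50.8%), and 21 of the 42 were in the 3′ UTR.

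The sequence at the listed base also differed. GGACT, the DNA form of the most common m6A sequence, made up 12.8% (8.72% to 18.5%) of the comparison positions of the ribosomal protein genes, against 35.2% (33.5% to 37.0%) in the other genes. Among their RRACH positions it made up 6.21%, close to the 7.46% of the other genes. GAACA gave 21 of the 179 comparison positions (11.7%), against 0.673% in the other genes. Counted per RRACH position, comparison lists held 31.5% (22.0% to 42.9%) of the GGACT of the ribosomal protein genes, 25.9% of the GGACC, 23.8% of the GGACA, 17.1% of the GAACA and 4.85% (2.09% to 10.9%) of the AAACC. In the other genes the same 5 sequences had 2.87%, 0.839%, 1.28%, 0.0480% and 0.0284%.

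Where the comparison lists coincided, positions were few, and the wide interval of the GGACT share included the value of the other genes. Of the 19 positions in all 3 comparison lists, 8 were GGACT (42.1%, 23.1% to 63.7%), against 37.8% in the other genes, and 5 were GGACA. Of the 49 positions that at least 5 of the 10 tools listed in WT or comparison, 20 were GGACT (40.8%, 28.2% to 54.8%), against 44.8% in the other genes. The number of tools is not neutral to sequence. Per the paper, MINES is limited to AGACT and GGACH and takes values of Tombo as input. The count of tools therefore cannot decide whether the sequences differ. GGACT made up 7.46% of the xPore positions of these genes in WT, 5 of 67, against 34.2% in the other genes, and 23.3% of those of m6Anet, against 21.7%.

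Ribosomal protein genes have many processed pseudogenes, and reads of a gene and of its copies can be told apart only where the sequences differ. The 21 nt around an RRACH position could be read on the chosen transcript for 1149 positions, and 594 of these windows (51.7%) were found unchanged in an annotated transcript of another gene. Of the shared windows, 94.6% were listed in WT and 23.6% (20.3% to 27.1%) were in a comparison list, and of the 555 windows found in no other gene 48.3% and 6.85% (5.03% to 9.26%). In coding sequence, 98.5% of 529 shared windows and 88.4% (79.9% to 93.6%) of 86 others were listed in WT, with 25% and 17.4% (10.9% to 26.8%) in a comparison list. Shared windows lay mostly near junctions: 87.2% of them were within 100 nt of one, against 25.8% (22.3% to 29.6%) of the windows found in no other gene. The 47.4% (32.5% to 62.7%) of comparison positions near a junction at windows of no other gene stands beside that 25.8%. It also stands beside the 268 such windows listed in WT, of which 114 were within 100 nt of a junction. Pseudogenes with a ribosomal protein name had listed positions of their own, 351 in 67 pseudogenes, of which Rpl3-ps1 had 17. The 21 nt of a shared window alone therefore do not tell the gene, and whether whole reads were ambiguous was not tested. The number of other genes with the same window is given for the leading positions below.

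Support by at least 2 tools was more frequent than in other genes, and for support by at least 7 the intervals overlapped. At least 2 tools listed 60.8% (57.7% to 63.8%) of the 959 positions, against 34.7% in the other genes and 42.1% in other short transcripts. At least 5 listed 5.11% (3.89% to 6.69%), against 3.31% in the other genes, but the 4.61% (4.01% to 5.30%) of the short transcripts lies within that interval. At least 7 tools listed 10 positions (1.04%, 0.567% to 1.91%), against 1.17% and, in the short transcripts, 1.78% (1.42% to 2.23%). These 10 positions, a set chosen after the values were seen, lie in 9 genes, and 8 of them are GGACT. In the 3′ UTR lie 6 of them and in coding sequence 4, and each was in 2 or 3 comparison lists and in at least 1 KO list.

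Among the core genes of the large subunit, Rpl29 held the position with the most support. All 10 tools listed chr9:106431481 on the plus strand in the 3′ UTR in exon 4 of 4, 34 nt after the start of the stop codon and 413 nt from the nearest junction, and in KO it was listed by Nanom6A, m6Anet and Epinano. Rpl41, which encodes the smallest ribosomal protein, had a pair of positions with 7 tools on the minus strand in its last exon, chr10:128548315 at 74 nt and chr10:128548187 at 202 nt after the stop codon, the first listed in KO by 3 tools and the second by Nanom6A. Rpl8, whose protein lies near the peptidyl transferase centre, had chr15:76906232 on the plus strand, 45 nt before the stop codon in its last exon, with 7 tools in WT or comparison and Tombo, Nanom6A and m6Anet in KO. Rpl13a, a host gene of small nucleolar RNAs, had chr7:45125934 on the minus strand, 14 nt after the stop codon, with 7 tools in WT or comparison and Nanom6A and xPore in KO. Rpl13a shares exons with the gene Gm45713 at 8 of its positions, and the windows of Rpl13a, Rpl8 and both Rpl41 positions each matched 1 other gene, while that of Rpl29 matched 0. In the small subunit, Rps19, which is mutated in Diamond–Blackfan anaemia, had chr7:24888945 on the plus strand, a GGACA 41 nt before the stop codon and 17 nt from a junction, with 8 tools in WT or comparison, Tombo and Nanom6A in KO and 0 matches in other genes. Rps6, the substrate of S6 kinase, had chr4:86855994 on the minus strand in exon 4 of 5, 20 nt from a junction, with 7 tools in WT or comparison and Tombo, Nanom6A and m6Anet in KO, and its window matched 4 other genes.

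The 21-nt windows of these 7 positions are shown because they had the most support among the core genes, and they can be set against the positions that no KO list held. They were read from the RefSeq GRCm38.p6 genome on the listed strand, 5′ to 3′, with the RRACH 5-mer around the listed base in capitals. They span chr9:106431471-106431491 (Rpl29, plus), chr10:128548305-128548325 and chr10:128548177-128548197 (Rpl41, minus), chr15:76906222-76906242 (Rpl8, plus), chr7:45125924-45125944 (Rpl13a, minus), chr7:24888935-24888955 (Rps19, plus) and chr4:86855984-86856004 (Rps6, minus).
Rpl29: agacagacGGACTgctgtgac
Rpl41 near the stop codon: aagctatcGGACTgtgtgctg
Rpl41 farther from it: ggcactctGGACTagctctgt
Rpl8: tgcccgccGGACTggacggct
Rpl13a: cccaataaAGACTgtttgcct
Rps19: agagacctGGACAggatcgct
Rps6: atattcctGGACTgacagaca

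Other core genes taken by the rule for named genes had leading comparison positions listed by 5 or 6 tools. With 6 tools in the large subunit were Rpl7a (chr2:26911423), Rpl5 (chr5:107903325), Rpl15 (chr14:18268966), Rpl37 (chr15:5117660) and Rpl35a (chr16:33058808). In Rpl7a, Rpl5, Rpl37 and Rpl35a this position was in coding sequence, between 2 and 57 nt from a junction, and in Rpl15 it was in the 3′ UTR, 47 nt after the stop codon. With 6 tools in the small subunit were Rps15a (chr7:118109069), 33 nt after the stop codon, and Rps2 (chr17:24720720), in coding sequence 12 nt from a junction. Each of these positions was listed in KO, by 1 tool for Rps2 and by 5 for Rpl35a. The windows of Rps2 and Rpl7a matched 37 and 25 other genes that of Rpl35a matched 15, that of Rpl5 matched 4 and that of Rpl37 matched 2, whereas those of Rpl15 and Rps15a matched 0.

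The rule's limit of 25 genes, with ties in genomic order, also took genes with 5 tools, among them Rpl4, Rpl6, Rpl9, Rpl21 and Rpl26 of the large subunit and Rps3 and Rps21 of the small subunit. Rpl4, which lines the peptide exit tunnel, had 25 positions in WT and 24 in KO, and 9 of them were in a comparison list. Rps21, with the shortest transcript of these at 394 nt, had 6 positions in each library, the 6 RRACH positions of its transcript, and 5 were in a comparison list. Rps3, which lies at the mRNA entry of the small subunit, had 17 positions in WT and 15 in KO, and its leading position (chr7:99478910) was an AGACA 47 nt after the stop codon with 0 matches in other genes. The leading positions of Rpl6, Rpl9, Rpl21 and Rps21 were in coding sequence, 15 to 34 nt from a junction, and that of Rpl26 (chr11:68904523) lay outside the chosen transcript, so that its window was not compared. The windows of Rpl9 and Rpl21 matched 8 other genes each, that of Rpl6 matched 7, that of Rps21 matched 1 and that of Rpl4 matched 0.

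The proteins of the P stalk, Rplp0, Rplp1 and Rplp2, recruit elongation factors to the ribosome. Rplp0 had 19 positions in WT and the same 19 in KO, 3 of them in a comparison list. Rplp1 had 3 in each library, 2 of them in a comparison list, and Rplp2 had 4 in WT and 3 in KO, with 2 in a comparison list. None of the 3 genes had more than 1 WT position that was in no KO list. Rps27a, which is made as a fusion with ubiquitin, had 13 positions in WT and 11 in KO, and 1 of them was in a comparison list. Of these 4 genes, those outside the rule for named genes were picked for their roles after the values were seen.

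The 7 paralogues held 69 positions in WT and 74 in KO. At 21 m6Anet positions in WT and 5 in KO their ratio was 0.238 (0.0701 to 0.649), and for ELIGOS the counts were 7 and 1, while Nanom6A listed 53 and 52 and Tombo 42 and 41. At least 5 tools listed 9 of the 69 positions (13.0%, 7.02% to 23.0%), against 4.49% (3.32% to 6.06%) in the core genes. Of these 9, Rpl7l1 alone held 5, Rpl22l1 2, and Rpl10l and Rpl36al 1 each, so the share rests mainly on 1 gene. Of the 8 comparison positions of the paralogues, 0 lay within 100 nt of a junction, while among the core genes the share was 85.9% (79.9% to 90.3%). All RRACH positions of the paralogues were near a junction in 30.2% of cases, against 59.8% in the core genes, and their positions in a WT or comparison list in 36.8%, against 77.9%. The 8 positions lie in 4 genes, and 4 of the 8 are in genes with 1 exon, which have no junction.

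Rpl10l and Rpl36al, the 2 members with 1 exon, and Rpl22l1 carried the best supported paralogue positions. In Rpl10l, a copy of the X-linked Rpl10 known from testis, chr12:66283710 on the minus strand lay 5 nt after the start of the stop codon in the 3′ UTR. It was listed by 9 tools in WT or comparison, by Nanom6A in KO, and its window matched 0 other genes. In Rpl36al, chr12:69183109 on the minus strand lay in coding sequence 291 nt before the stop codon. It was listed by 9 tools in WT or comparison and by Nanom6A and xPore in KO, and its window matched 2 other genes, besides an overlap of Rpl36al exons with Gm49383 at 7 positions. In Rpl22l1, a paralogue of Rpl22, chr3:28807384 on the plus strand lay 55 nt after the stop codon in exon 4 of 4, with 8 tools in WT or comparison, Nanom6A in KO and 0 matches. Their windows, shown for the same reason and read in the same way as those of the core genes with the RRACH 5-mer in capitals, span chr12:66283700-66283720 (Rpl10l, minus), chr12:69183099-69183119 (Rpl36al, minus) and chr3:28807374-28807394 (Rpl22l1, plus) on GRCm38.
Rpl10l: attcctgaGGACTttgctggc
Rpl36al: aacccgaaGGACTttctgtaa
Rpl22l1: ataaaattGGACTttatgaga

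**Figure D3:**
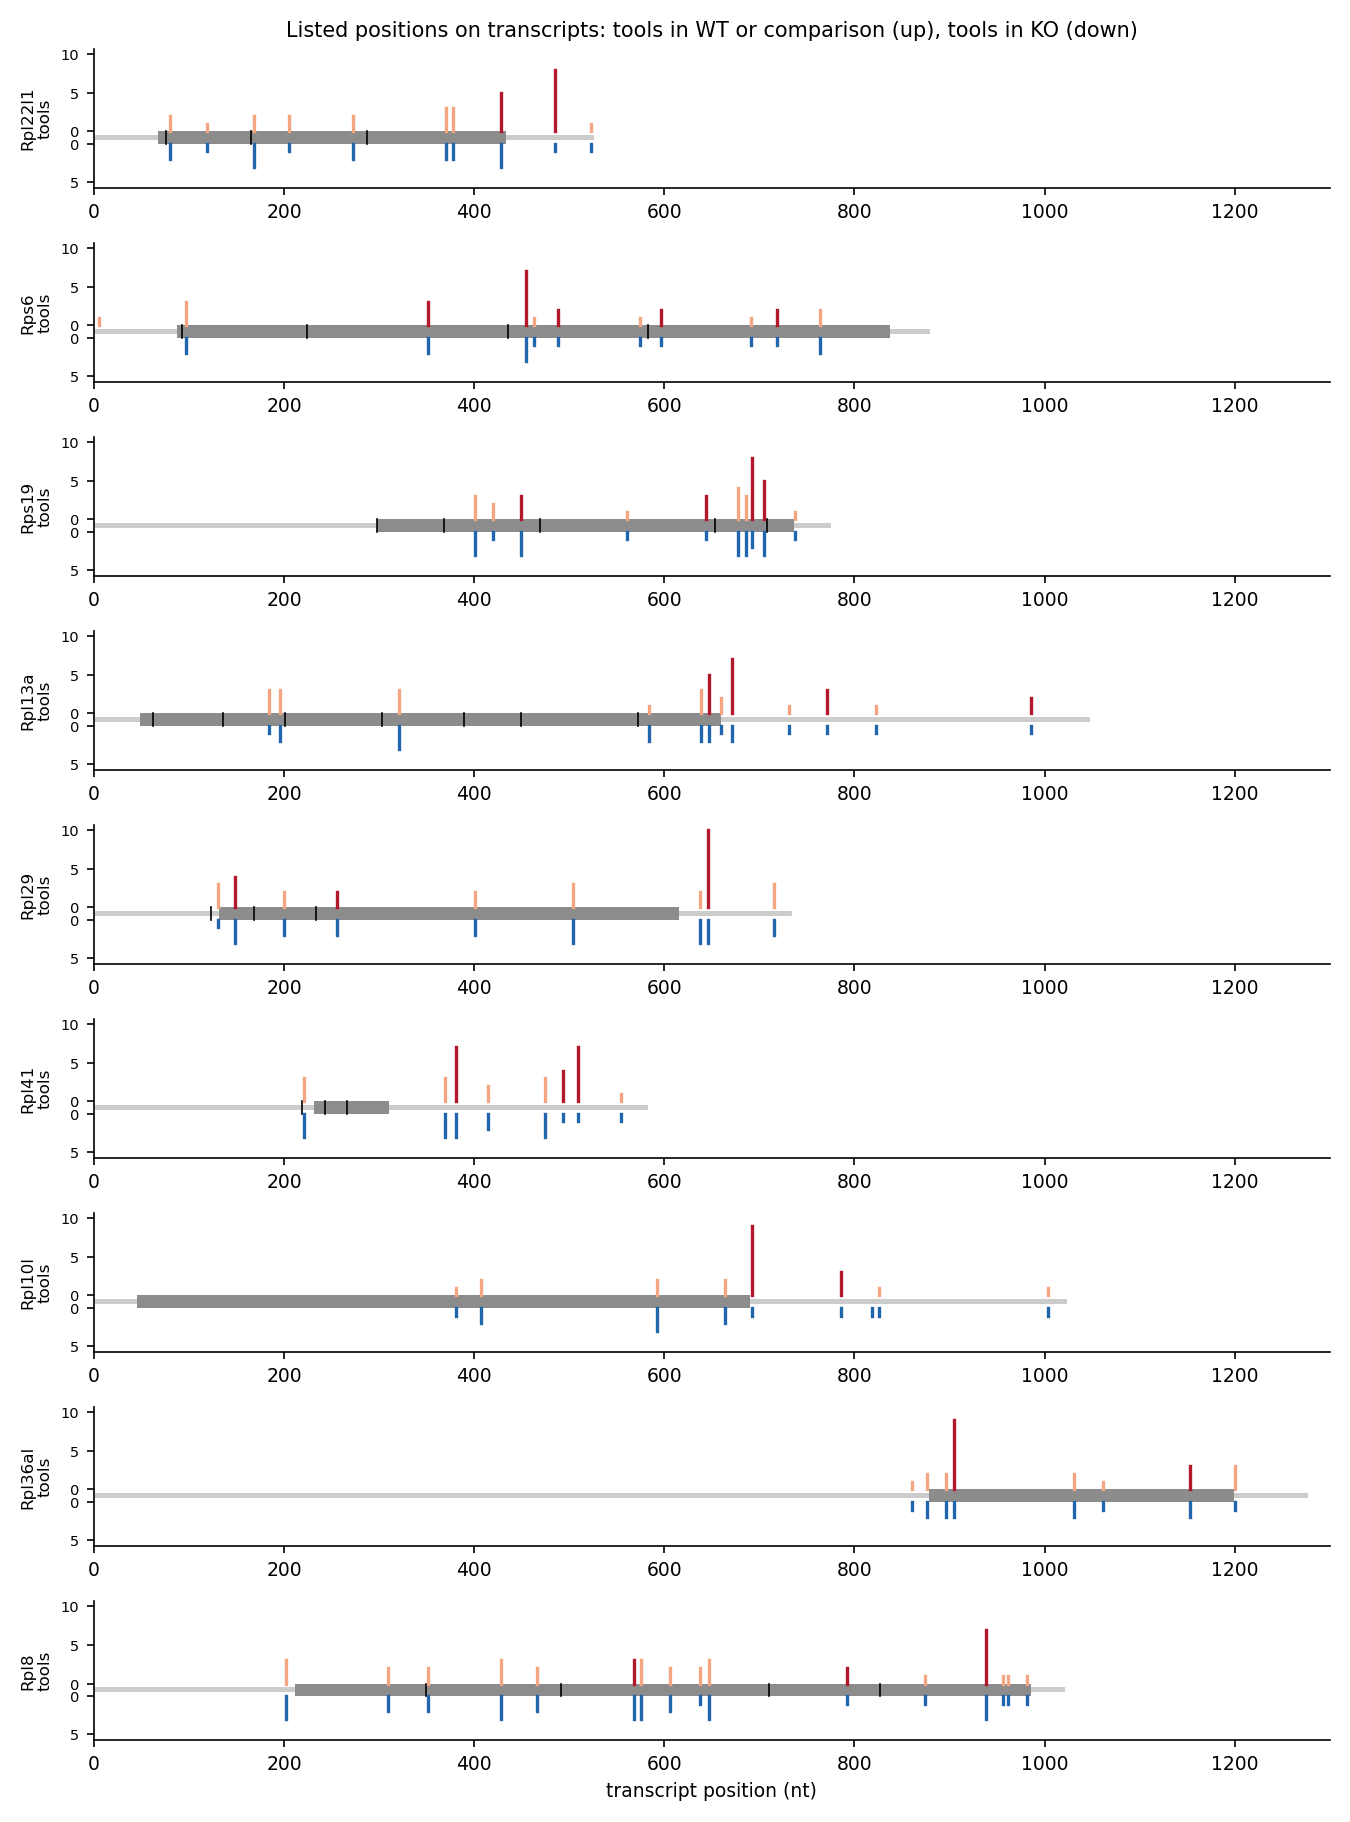
Transcripts of the 9 genes with a position listed by at least 7 tools, drawn to scale in nt from the 5′ end, with UTRs as thin light bars, coding sequence as thick dark bars and exon junctions as black lines. Upward lines give the tool number per position in WT or comparison (dark red where a comparison list held it, light orange where none did) and downward blue lines the number of tools that listed it in KO, so that the Rpl29 position reaches 10 tools upward and 3 downward, and the Rpl10l position 9 and 1.

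Positions without any KO list had less support in these genes. The 5 with the most tools were a GGACT of Rpl7l1 with 6 tools (Tombo, Nanom6A, m6Anet, ELIGOS, Epinano and xPore), a GGACT of Rpl35a with 4, an AGACT of Rpl7l1 with 4, a GGACT of Rpl14 with 3 and an AGACT of Rpl30 with 3. Those of Rpl7l1, a paralogue of Rpl7, lay in the 3′ UTR in exon 7 of 7, 1598 and 1451 nt after the stop codon. That of Rpl35a, a gene mutated in Diamond–Blackfan anaemia, lay in the 5′ UTR in exon 2 of 5, and that of Rpl14 lay in the 3′ UTR, 56 nt after the stop codon. That of Rpl30 lay in coding sequence in exon 3 of 5 and was the only one of the 5 in a comparison list, that of Nanocompore. The windows of the first 4 matched 0 other genes and that of Rpl30 matched 1. The windows are shown as those that no KO list held, with the 5-mer in capitals, and span chr17:46774142-46774162 and chr17:46774289-46774309 (Rpl7l1, minus), chr16:33057142-33057162 (Rpl35a, plus), chr9:120574438-120574458 (Rpl14, plus) and chr15:34442692-34442712 (Rpl30, minus) on GRCm38.
Rpl7l1 with 6 tools: agaaagaaGGACTgctggcaa
Rpl7l1 with 4 tools: ggttacagAGACTcaagaaac
Rpl35a: tgggaacaGGACTtctaacag
Rpl14: tcatgtgtGGACTctaagctt
Rpl30: ctacaagcAGACTctgaagat

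At the other extreme, 2 positions were listed in both libraries by the same 5 tools and 12 by the same 4. Rplp0 had a GGACC in coding sequence in exon 4 of 7, at chr5:115561173, that Tombo, MINES, Nanom6A, m6Anet and ELIGOS listed in both libraries. No comparison list held it. Rpl35a had a GGACA in exon 4 of 5, 37 nt before the stop codon, listed in both libraries by Tombo, MINES, Nanom6A, Epinano and xPore, and by Nanocompore as well. With 4 tools in both libraries, the first 3 in genomic order were a GAACT of Rpl31, 30 nt after the stop codon, an AGACT of Rplp0 in exon 5 of 7 and a GGACA of Rpl13 in exon 2 of 6, the latter 2 in coding sequence. The windows of Rpl31 and of the Rplp0 GGACC matched 0 other genes, and those of Rpl35a, Rpl13 and the Rplp0 AGACT matched 15, 9 and 5. The windows are shown as those listed most alike with and without Mettl3, with the 5-mer in capitals, all on the plus strand of GRCm38, and span chr5:115561163-115561183 and chr5:115561344-115561364 (Rplp0), chr16:33058798-33058818 (Rpl35a), chr1:39371351-39371371 (Rpl31) and chr8:123102716-123102736 (Rpl13).
Rplp0 in exon 4: ctggtctaGGACCcgagaaga
Rplp0 in exon 5: gctgataaAGACTggagacaa
Rpl35a: aggccattGGACAcagaatcc
Rpl31: aagttgcaGAACTgccttcag
Rpl13: cagcgagtGGACActtggttc

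Per gene, the share of RRACH positions listed in WT had a median of 85.7% and ran from 13.0% in Rps15a to every position in some genes, and in KO the median was 81.8%. The 84 genes had a median of 10 positions in WT (3 to 39) and 9.5 in KO (3 to 31). More positions were listed in WT than in KO in 39 genes, equally many in 29 and fewer in 16, where WT here includes the comparison lists. In 38 genes no WT or comparison position was missing from the KO lists, and 28 genes had positions in KO lists alone. No such counts of genes are given here for all genes, so whether these differ from the background was not tested. The number of comparison positions per gene had a median of 2 and ran from 0 in 17 genes to 10 in Rpl3.

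The 5 genes with the most positions were Rps24, Rpl22, Rpl7l1, Rpl3 and Rpl4. Rps24, a gene with several transcript ends, had 39 positions in WT and 31 in KO. Of the 39, 12 were in no KO list, the most of any member, while its chosen transcript held 15 RRACH positions. Rpl22, whose mRNA has a 3′ UTR of 1647 nt, had 28 in WT and 24 in KO and 0 in a comparison list. Rpl7l1 had 27 and 23, with 2 in a comparison list. Rpl3, a core protein of the large subunit, had 26 and 27, with 10 in a comparison list, but each of its 18 RRACH windows was shared with another gene. Comparison positions in these 5 genes thus ran from 0 to 10.

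Positions in KO and in no WT list were most frequent in Rpl39l and Rps28, followed by Rpl27a and Rps24 with 4 each, of which the rule took Rpl27a by genomic order. Rpl39l, a paralogue of Rpl39 known from germ cells, had 6 positions in WT and 14 in KO, so that 8 were listed in KO alone, and 0 were in a comparison list. At most 2 tools listed any of its WT positions. Rps28 had 3 in WT and 9 in KO, and Rpl27a had 17 in WT and 21 in KO. Whether these genes had more reads in KO was not analysed here, since the lists give no read number.

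The other lists of translation-related genes placed these values. Of 22 translation genes (elongation and initiation factors and others, several with terminal oligopyrimidine tracts), 15 had a comparison position, and 12.4% (9.94% to 15.4%) of their positions in a WT or comparison list were in a comparison list. Eef1a1, an elongation factor that delivers aminoacyl-tRNA, had 23 of its 24 positions in a comparison list, all 24 of them also in KO. Eef2, the translocation factor, had 14 of 45 and Npm1, a nucleolar chaperone, 7 of 32. Eef1a1 and Eef2 thus held 37 of the 69 comparison positions of the translation genes, and without them, a choice made after seeing the data, the share was 6.58% (4.70% to 9.15%). Of the RRACH positions of the 22 translation genes, 74.1% were listed in WT and 72.3% in KO. Among their positions in a WT or comparison list, 6.49% (4.72% to 8.85%) were in no KO list. In the other direction, 4.77% of their KO positions were in no WT or comparison list. Both shares were below those of the ribosomal protein genes, 9.70% (7.98% to 11.7%) and 5.87%, with overlapping intervals for the first. Within 100 nt of a junction lay 59.4% (47.6% to 70.2%) of their comparison positions, and 62.5% (45.3% to 77.1%) without Eef1a1 and Eef2. This is close to the 57.0% of their RRACH positions. The 71.8% (67.9% to 75.4%) of their positions in a WT or comparison list was higher, with overlapping intervals. In the ribosomal protein genes the comparison positions had the highest of the 3 shares. Their 82.0% (75.7% to 87.0%) and the 74.6% (71.6% to 77.5%) of positions in a WT or comparison list also had overlapping intervals. At windows found in no other gene, 47.4% (32.5% to 62.7%) of the comparison positions were near a junction. There, 114 of the 268 RRACH positions listed in WT were near one.

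Genes that build ribosomes, or that encode the ribosome of mitochondria, had lower comparison shares than the cytosolic ribosomal protein genes and higher ones than the background of 2.45% of positions and 15.5% of genes. Of 28 ribosome biogenesis genes, 13 (46.4%) had a comparison position, and these were 4.04% (2.75% to 5.89%) of their positions, with 4 each in Ncl and Nop2 and 3 in Polr1b. Of 78 mitochondrial ribosomal protein genes, 41 (52.6%) had a comparison position, 8.67% (6.95% to 10.8%) of their positions, and 2.82% (0.776% to 9.70%) of those were within 100 nt of a junction. Their RRACH positions were listed in 36.9% in WT and 32.9% in KO, and those of the biogenesis genes in 40.1% and 38.1%.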

How the data were processed

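The samples were 1 WT and 1 Mettl3 KO library of native poly(A) RNA from mouse embryonic stem cells. The authors aligned the reads to a GENCODE mouse transcriptome, ran each tool and deposited 17 lists of positions on the mm10 (GRCm38) build. The other values in the deposited lists are the strand, the transcript or gene and, in most lists, the position on the transcript, without a score, rate or coverage. Per the methods, sites needed a minimum read number, and each tool's cut-off was the one with the best summed F1 score against miCLIP and miCLIP2 sites. Some deposited lists, such as that of Tombo in WT, are longer than the study's site numbers at these cut-offs, so the cut-off behind the deposited lists is not given in the sources used here.

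Transcripts came from GENCODE M21, a later release than the authors used, and 27118 of 27453 transcript and gene names (98.8%) were found. A position belonged to a gene if it lay in an exon on the same strand and a list named that gene. Of the lines in ribosomal protein genes, 3011 of 3060 (98.4%) had a transcript coordinate that led to the same base, and 1002 of 1013 positions had the same 5-mer in the genome. Positions in exons of more than 1 gene numbered 43. Each gene was placed on its complete coding transcript with the most listed positions, a choice made after seeing the data, with the APPRIS ranking as an alternative.

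The genes and positions named were: members with a comparison position, at most 25 by most tools; the 5 members with the most positions; the 3 with the most positions in KO and no WT list; the 5 positions listed by most tools in no KO list and the 5 listed by most in both libraries; and the 3 genes of each other list with the most comparison positions, with ties in genomic order. From the mitochondrial list no gene is named. Some genes that the rule took are not reported here. The members and lists were chosen with earlier results of these data known. The alternatives tried were core genes only, exon overlap alone, RRACH only, lines in place of positions, matching within 5 bp, lists without Tombo or without MINES, short transcripts as the comparator, other windows, no shared exons, and those added after seeing the data (the APPRIS transcript, windows of no other gene, ratios with the positions of both lists held fixed, translation genes without Eef1a1 and Eef2, and members without Rps20 and Rps15a). The computations were tested on simulated data and used Python 3.11.15, numpy 2.4.6, pandas 2.3.3, scipy 1.17.1, pysam 0.24.0 and matplotlib 3.10.9.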

Additional observations from a re-analysis of the deposited data

How the results depend on the processing

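Of 147 values under alternatives, 113 stayed within the 95% interval of the reported value (for the count of genes, within 1.5 times) and 34 did not. Without Tombo, the share of RRACH positions listed was 68.4% in WT and 65.9% in KO, and 46.7% of positions had at least 2 tools. With other genes limited to transcripts under 1000 nt, their shares were 54.2% of RRACH positions listed in WT and 45.2% in KO, 4.88% of positions in a comparison list, 42.1% with at least 2 tools, 56.0% (WT or comparison) and 54.4% (KO) near the stop codon, and 56.4% and 58.6% near a junction. A stop codon window of 100 nt held 25.6% of WT or comparison positions and 25.5% of KO positions, and within 50 nt 15.0% and 15.3%. Within 50 nt of a junction lay 56.5% and 56.4%, and within 200 nt 84.2% and 84.1%. In the core genes 77.9% and 78.3% lay within 100 nt of a junction. With windows found in no other gene, an alternative chosen after seeing the data, 14.1% of positions were in a comparison list, and 47.4% of comparison positions lay near a junction. Without Eef1a1 and Eef2, also chosen after seeing the data, 6.58% of translation gene positions were in a comparison list. Without Rps20 and Rps15a, chosen likewise, the shares of RRACH positions listed in WT and KO were 77.2% and 75.6% in all members, 80% and 77.9% in the small subunit, 62.3% and 60.7% in the 3′ UTR, 46.3% in both libraries in the small subunit's 3′ UTR, and 43.7% and 42.4% beyond 200 nt of a junction. Whether the interval of a KO to WT ratio included 1 changed for MINES with each line counted (0.705, 0.522 to 0.949), for ELIGOS in the core genes (0.625, 0.339 to 1.13) and without exons of more than 1 gene (0.583, 0.324 to 1.03), and for Nanom6A with the positions of both lists held fixed (0.948 to 0.987). The window widths differ by construction, and for the other changes the cause was not tested. No paired analysis was possible because there is 1 library per group. Depth per position is unknown, so no value could be recomputed at equal depth.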
